A study of Homo sapiens with 4 samples.

Results

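The genes described here are the fatty acid elongases ELOVL1 to ELOVL7 and the desaturases FADS1, FADS2 and SCD, 10 of the 60483 genes counted. They were taken by symbol, through their Ensembl identifiers. Their transcripts were counted by RNA sequencing in C4-2 cells, an established prostate cancer line. The study had 2 groups, control cells and cells grown with the antiandrogen enzalutamide until resistant, with 2 libraries in each. All were labelled C4-2 at passage 20 to 30 and compared after culture with or without the drug for 1 month. Whether control cells received vehicle is not stated, and drug exposure and the resistant state cannot be told apart. The growth protocol also names an FGF-2 expansion medium without saying which cells received it. The labels do not say that the libraries of a group came from separate cultures, so each p-value covers library-to-library spread alone, and that spread may be technical.

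Long-chain fatty acids are lengthened at the endoplasmic reticulum in a cycle of reactions, in which an ELOVL enzyme joins malonyl-CoA to the acyl chain and sets which chains are used. Reduction, dehydration and a second reduction by enzymes common to all elongases complete the cycle. Desaturases then place double bonds with electrons that pass through cytochrome b5. SCD makes monounsaturated chains such as oleate from saturated ones, while FADS2 and FADS1 act in turn, with ELOVL5 and ELOVL2, to make the long polyunsaturated chains of membranes. Many of these genes are targets of the sterol-regulated factor SREBP-1 in liver and tumour cells, and lipid synthesis in prostate cells is known to respond to androgen.

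Reads counted in genes ranged from 25589724 to 45033885 a library. The libraries differed in makeup by group: unaligned records were 36.955% and 34.158% of all in control replicates 1 and 2, against 20.32% and 20.662% in resistant replicates 1 and 2. The part of this difference in the results below was not tested. Of 10 markers of the line, 8 were called higher and 2 lower, with sums of 4675 and 4555 CPM (counts scaled to library size) in control and 6603 and 6637 CPM in resistant libraries. KLK3 and FOLH1, which encode prostate-specific antigen and prostate-specific membrane antigen, were at 477 CPM or more in every library. Markers of fat cells, which also express desaturases strongly, summed to at most 0.965 CPM over 5 genes, mostly PLIN1, with ADIPOQ and FABP4 at 0 in every library. Fibroblast markers summed to 8.73 to 11.2 CPM over 8 genes, mostly COL1A1 at 5.24 to 7.84 CPM, with COL1A2 at 0 in every library. Of these, COL1A1 was called lower and COL3A1, at 1.05 to 2.07 CPM, was called higher. Leukocyte markers summed to 2.01 and 2.03 CPM in control and 4.44 and 4.39 CPM in resistant libraries over 8 genes, with CD3E at 0 and ITGAM, at 3.38 and 3.04 CPM in resistant libraries, the highest. Endothelial markers summed to 23.7 and 25.2 CPM in control and 40.9 and 37.6 CPM in resistant libraries over 6 genes, mostly EGFL7, with CDH5 and PECAM1 at 0.0839 CPM or less. Neural stem cell markers summed to 2.63 to 5.27 CPM over 6 genes, and basal prostate markers to 0.392 to 2.29 CPM over 5, with KRT5 at 0. In that last list TP63 had 0 and 1 counts in control and 94 and 89 counts in resistant libraries. The part of these marker differences in the results was not tested.

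Of the 10 genes listed here, all that were called were lower in resistant cells. The list was drawn up with earlier results of these data known. It leaves out other desaturases such as SCD5, described below, of which 3 of 4 tested were called higher. Of the 10 genes, 9 passed the filter on low counts, and 8 of these were called lower and 0 higher by edgeR's quasi-likelihood test at an adjusted p below 0.05. ELOVL1 was not called and ELOVL3 was too low to be tested. The median log2 difference (resistant minus control, the log2 fold change) of the 9 was -0.71, against -0.016 over all 20325 genes tested. Calls were common in this comparison: 64.7% of all genes tested were called, 31.7% lower and 33% higher, so 8 of 9 lower is to be read against 31.7%. Of the members, ELOVL7 and ELOVL2 were at least 2-fold lower, a size that 10.1% of all genes reached. The CPM of the groups did not overlap for any of the 9, as for 81.3% of all genes tested. Because these are bulk libraries, less RNA per cell and fewer cells that make it cannot be told apart.

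**Figure D1:**
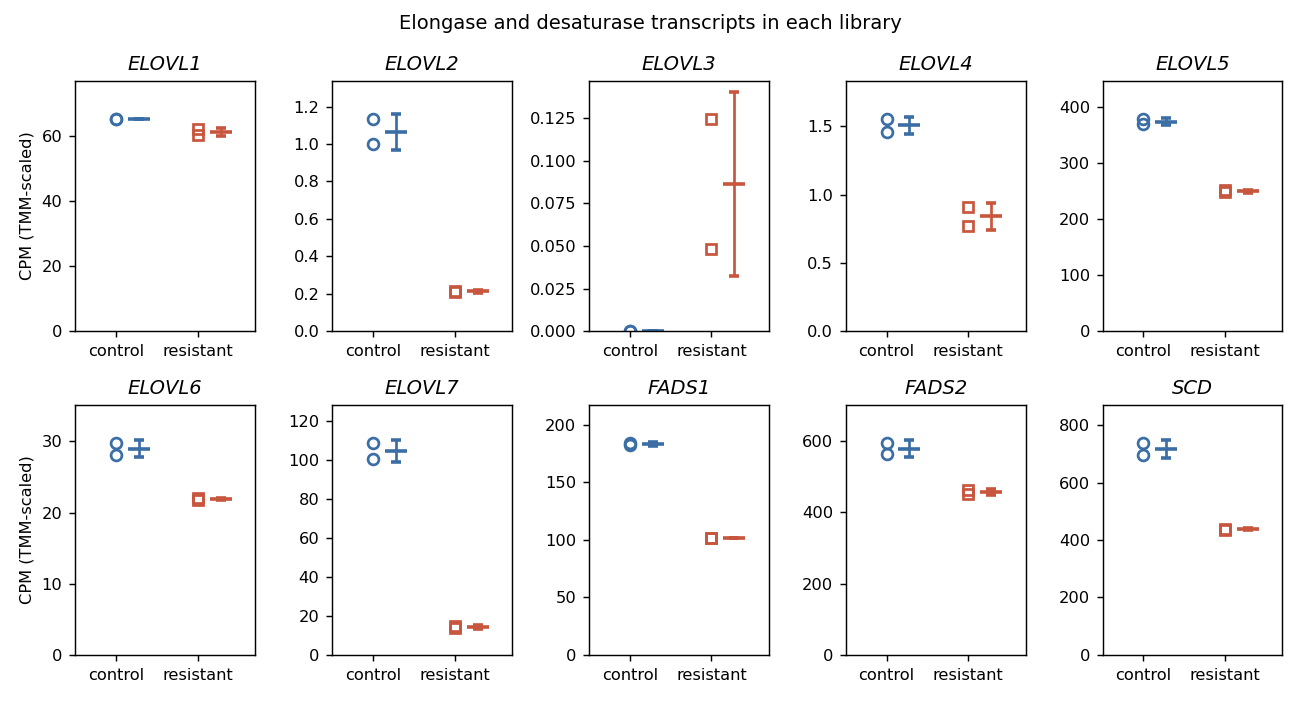
CPM of each gene in each library, scaled by TMM. Circles are control and squares resistant libraries, horizontal bars are means and error bars SD (n = 2 per group), and each panel has its own linear axis from 0. Resistant libraries lie below control libraries in every panel but that of ELOVL3, where control libraries are at 0; the widest gap is that of ELOVL7.

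ELOVL7, an elongase of saturated and monounsaturated chains that has been linked to prostate cancer, showed the greatest difference. It spans bases 60751791 to 60844389 of chromosome 5 (GRCh38, minus strand). Its values were 108.7 and 100.6 CPM in control replicates 1 and 2 and 14.9 and 13.6 CPM in resistant replicates 1 and 2. Both resistant libraries were thus far below both control libraries, and the values within each group lay close together. The gene fell 7.33-fold, with a log2 difference of -2.87 (SE 0.0584, edgeR adjusted p = 1.16e-11). Ordered from the lowest log2 difference, it was number 85 of the 20325 genes tested.

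ELOVL1, which lengthens saturated and monounsaturated chains to very long ones for sphingolipids, uses substrates that overlap those of ELOVL7. It lies on chromosome 1 at 43363397 to 43368074. Its values were 65.19 and 65.21 CPM in control and 60.5 and 62.1 CPM in resistant libraries. Though the groups did not overlap, its log2 difference of -0.089 (SE 0.0415, edgeR adjusted p = 0.0795) did not pass the test. Its sign depended on the scaling, at 0.099 with total count scaling (edgeR adjusted p = 0.0551). With a filter of 1 CPM it was called, at -0.14 (edgeR adjusted p = 0.00753), and also with offsets for gene length and GC content, at -0.088 (edgeR adjusted p = 0.0414). ELOVL6, which turns palmitate into stearate, had 29.8 and 28.2 CPM in control and 21.8 and 22 CPM in resistant libraries. All resistant values lay below all control values, and the gene fell 1.32-fold (log2 difference -0.40, SE 0.0592, edgeR adjusted p = 8.57e-05), or by 0.22 on the log2 scale with total count scaling.

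Of the elongases of polyunsaturated chains, ELOVL5 was abundant and ELOVL2 nearly absent. ELOVL5 takes the products of FADS2. It spans 53267398 to 53349179 of chromosome 6, and had 378.4 and 369.3 CPM in control and 251.2 and 247.9 CPM in resistant libraries. These groups were well apart, and ELOVL5 fell 1.5-fold (log2 difference -0.58, SE 0.0359, edgeR adjusted p = 4.69e-08). ELOVL2, which carries the series on towards the precursors of docosahexaenoate, had 27 and 28 counts in control and 10 and 9 counts in resistant libraries. In CPM these were 1.13 and 0.998 against 0.207 and 0.217, a 4.94-fold fall on few reads (log2 difference -2.30, SE 0.311, edgeR adjusted p = 4.38e-05). ELOVL4, known for very long chains in retina and skin, was also low, with 1.55 and 1.46 CPM in control and 0.913 and 0.772 CPM in resistant libraries. Its log2 difference of -0.83 (SE 0.212, edgeR adjusted p = 0.00488) rested on 32 to 44 counts per library. The call ended with DESeq2 under its own filter (-0.78, DESeq2 adjusted p = 0.162) and on the genes of the edgeR fit (-0.83, DESeq2 adjusted p = 0.0789). It also ended with length and GC offsets (-0.49, edgeR adjusted p = 0.0634).

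ELOVL3, an elongase of skin and brown fat, had almost no reads. It had 0 counts in both control libraries and 6 and 2 counts in resistant replicates 1 and 2. The control group's 0 counts allow up to 3 counts, or 0.0578 CPM, counting error only. Taken singly, resistant replicate 1, at 0.124 CPM, was above that limit and resistant replicate 2, at 0.0483 CPM, below it, so no fold is given and no test was made.

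All 3 desaturases were lower. SCD, the stearoyl-CoA desaturase, lies on chromosome 10 at 100347124 to 100364834, and had the highest CPM of the 10 genes in control libraries. Its values were 738.1 and 695.3 CPM in control and 436.1 and 440 CPM in resistant libraries. The resistant pair agreed closely and lay below both controls, a 1.64-fold fall (log2 difference -0.71, SE 0.0373, edgeR adjusted p = 1.22e-08).

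FADS2 and FADS1 overlap on chromosome 11, at 61792980 to 61867354 (plus strand) and 61799625 to 61829318 (minus strand). The annotated span of FADS1 lies wholly within that of FADS2. FADS2, the first and rate-limiting desaturase of the polyunsaturated series, had 562.5 and 595 CPM in control and 462.9 and 450.9 CPM in resistant libraries. The groups did not overlap, and its 1.27-fold fall was the smallest of the 8 called members (log2 difference -0.34, SE 0.0377, edgeR adjusted p = 8.05e-06). That size depended on the processing: the log2 difference was -0.15 with total count scaling and -0.78 with length and GC offsets, with the gene called in both. FADS1, which acts after the first elongation and makes arachidonate, had 184.3 and 182.2 CPM in control and 102.0 and 102.1 CPM in resistant libraries. It fell 1.80-fold (log2 difference -0.84, SE 0.0394, edgeR adjusted p = 4.43e-09), and by 1.21 on the log2 scale with length and GC offsets.

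The balance between the FADS genes differed between groups. The ratio of FADS1 to FADS2, both per kilobase of coding transcripts, was 0.206 and 0.193 in control and 0.139 and 0.143 in resistant libraries. The groups did not overlap, and with 2 libraries against 2 an exact two-sided permutation test cannot go below p = 0.333, so the ratio was not tested. FADS1 and FADS2 share 490 exonic bases on opposite strands, 4.79% and 4.44% of their annotated exons. Counting reads without strand would leave those bases ambiguous, and no source used here gives the strand setting.

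**Figure D2:**
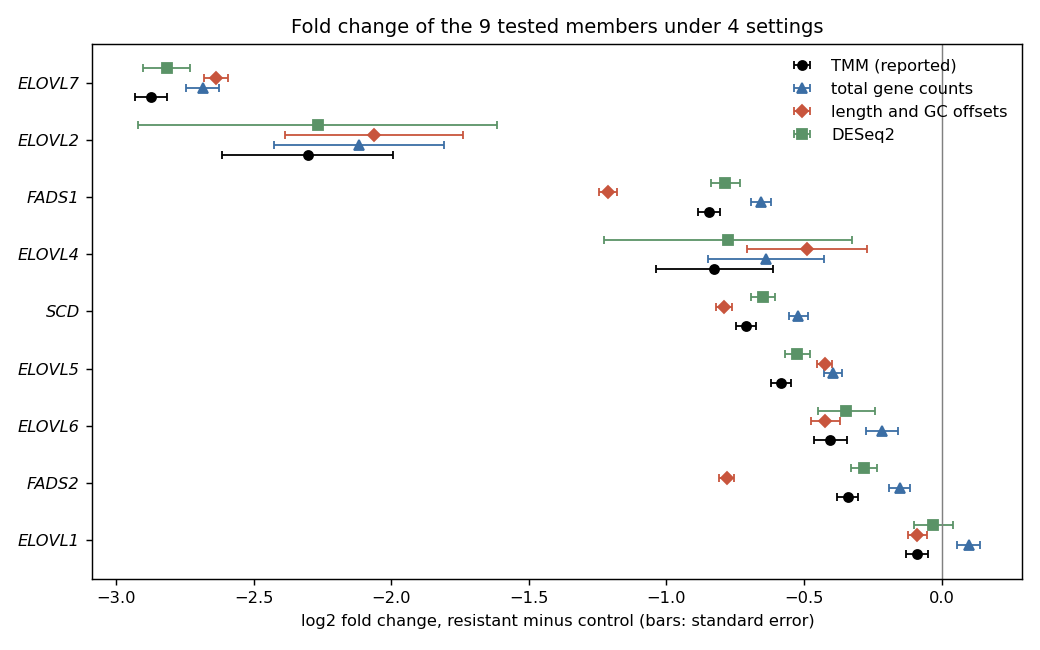
Log2 fold change, resistant minus control, of the 9 genes tested, with standard errors, under TMM (reported), total count scaling, length and GC offsets and DESeq2. All points lie below 0 except that of ELOVL1 with total count scaling at 0.099; FADS2 ranges from -0.15 to -0.78.

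Levels of different genes were compared per kilobase of coding transcripts, as RPKM from TMM-scaled CPM. In control libraries the order of mean RPKM was SCD (134 ± 5.65, SD, n = 2), FADS2 (116 ± 4.61), ELOVL5 (107 ± 1.84), ELOVL1 (36.5 ± 0.00996), ELOVL7 (24.1 ± 1.31) and FADS1 (23.2 ± 0.182). ELOVL6 (4.37 ± 0.174), ELOVL4 (0.495 ± 0.0212) and ELOVL2 (0.267 ± 0.0239) followed, with ELOVL3 at 0. ELOVL7 and FADS1 did not differ beyond their spread. In resistant libraries FADS2 (91.8 ± 1.7) came before SCD (81.7 ± 0.506), then ELOVL5 (71.6 ± 0.674), ELOVL1 (34.3 ± 0.67) and FADS1 (12.9 ± 0.00134). ELOVL6 (3.3 ± 0.0238) and ELOVL7 (3.28 ± 0.22) did not differ beyond their spread. ELOVL4 (0.277 ± 0.0327), ELOVL3 (0.063 ± 0.0393) and ELOVL2 (0.0531 ± 0.00172) came last, the last pair within its spread. The place of FADS2 depended on the length used: over all annotated exons it was 52.5 RPKM in control and 41.4 RPKM in resistant cells, the third of the genes in both.

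As a pool, elongase transcripts summed to 175.4 and 170.7 RPKM in control and 113.1 and 112.7 RPKM in resistant libraries. Desaturase transcripts summed to 273.9 and 272.2 RPKM against 187.2 and 185.5 RPKM. Within the elongase pool, ELOVL7 made up 14.3% and 13.6% in control and 3.04% and 2.77% in resistant libraries. ELOVL1 made up 20.8% and 21.4% against 29.9% and 30.9%, while ELOVL5 held 61.9% and 62.1% against 63.7% and 63.1%. ELOVL5 was thus the main elongase transcript in all 4 libraries. The ratio of ELOVL7 to ELOVL1 per kilobase was 0.686 and 0.635 in control and 0.101 and 0.0898 in resistant libraries. Among the desaturases SCD held 50.3% and 47.6% in control and 43.4% and 44.2% in resistant libraries. FADS2 held 41.2% and 43.9% against 49.7% and 48.8%, and FADS1 held 8.51% and 8.47% against 6.89% and 6.96%. The shares of SCD and FADS2 depended on the length used. Over all annotated exons the mean share of SCD was 65.5% in control and 61.4% in resistant cells, and that of FADS2 25.7% and 31.1%. None of these shares was tested.

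**Figure D3:**
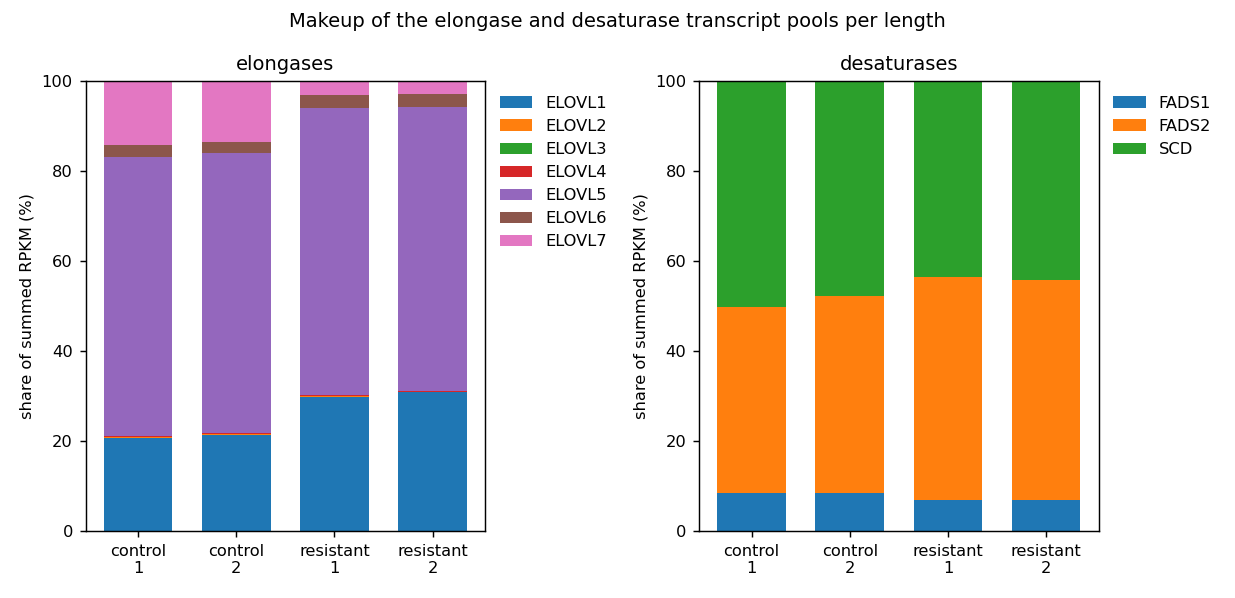
Share of each gene in the summed RPKM of the 7 elongases (left) and of the 3 desaturases (right) in each library, in percent from 0 to 100. The band of ELOVL7 is 14.3% and 13.6% in control libraries and 3.04% and 2.77% in resistant ones, while ELOVL5 stays the widest elongase band.

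Promoter windows were compared because the members moved mostly in 1 direction and by very different amounts. RefSeq windows (GRCh38.p14) of 300 bases, from 250 before to 50 after a start, were found for all 10 genes. Those of the gene that moved most, the elongase that was not called, FADS1 and SCD are shown 5′ to 3′, with capitals marking Sp1 boxes (GGGCGG) and NF-Y boxes (CCAAT) on either strand.
ELOVL7 (chr5:60844220-60844519, minus strand): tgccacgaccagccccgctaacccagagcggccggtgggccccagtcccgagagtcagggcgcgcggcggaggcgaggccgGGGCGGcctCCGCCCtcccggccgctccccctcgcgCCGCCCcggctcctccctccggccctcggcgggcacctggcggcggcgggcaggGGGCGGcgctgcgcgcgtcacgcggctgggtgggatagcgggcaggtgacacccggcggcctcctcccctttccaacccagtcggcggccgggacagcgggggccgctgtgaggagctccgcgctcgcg
ELOVL1 (chr1:43367962-43368261, minus strand): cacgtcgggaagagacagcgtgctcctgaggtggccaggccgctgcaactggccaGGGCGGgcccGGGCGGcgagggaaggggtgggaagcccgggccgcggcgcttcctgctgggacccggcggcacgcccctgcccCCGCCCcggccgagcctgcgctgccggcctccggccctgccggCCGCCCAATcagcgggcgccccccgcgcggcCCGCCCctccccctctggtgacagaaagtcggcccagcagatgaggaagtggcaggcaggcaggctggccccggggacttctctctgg
FADS1 (chr11:61816954-61817253, minus strand): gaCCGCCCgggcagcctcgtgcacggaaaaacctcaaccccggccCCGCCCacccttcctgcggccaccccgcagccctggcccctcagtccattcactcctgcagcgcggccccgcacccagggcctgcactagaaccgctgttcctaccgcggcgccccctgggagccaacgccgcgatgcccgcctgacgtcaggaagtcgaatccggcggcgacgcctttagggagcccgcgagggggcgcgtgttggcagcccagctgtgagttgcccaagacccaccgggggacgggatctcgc
SCD (chr10:100346983-100347282, plus strand): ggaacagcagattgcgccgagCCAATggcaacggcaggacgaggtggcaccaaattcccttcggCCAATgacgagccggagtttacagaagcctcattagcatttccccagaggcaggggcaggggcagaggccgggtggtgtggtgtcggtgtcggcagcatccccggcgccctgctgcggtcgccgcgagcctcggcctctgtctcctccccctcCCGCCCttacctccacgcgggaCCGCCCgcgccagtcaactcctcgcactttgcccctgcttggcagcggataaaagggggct

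The windows of ELOVL7 and ELOVL1 both held Sp1 boxes, 4 and 5 of them, and were rich in G and C, at 80.7% and 77.3% against a median of 58.7% over 35116 windows. An NF-Y box was found once in ELOVL1, where it overlapped an Sp1 box, and 2 times in SCD, and in none of the bases shown for ELOVL7 or FADS1. Over the family, 9 of 10 genes had an Sp1 box and 6 of 10 an NF-Y box, against 45% and 34.6% of all windows. FADS2, which had 2 windows, counted for both boxes through the second alone. The windows of the family held 57.3% to 83.7% G and C, and the part of this in the counts was not tested. The E-box CACGTG was in 2 of 10, ELOVL4 and ELOVL5, against 7.26% of windows. No window of the 10 genes held the sterol regulatory element core TCACNCCAC (1.13% of windows) or the box AGAACA of the androgen response element (14.8% of windows). Nor did any hold the LXR element (AGGTCA, 4 bases, AGGTCA) or the full androgen response element (AGAACA, 3 bases, TGTTCT), which 0.0199% and 0.00285% of windows hold. These are matches of fixed letters within 300 bases and not measured binding, and sites that differ from those letters would be missed. The RefSeq start of FADS1 lies 800 and 599 bases beyond the pair of FADS2 starts on the opposite strand, so their first transcribed bases overlap.

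The other enzymes of the elongation cycle went both ways. Of 7 listed, 6 were tested, and 4 were called higher and 2 lower (median log2 difference 0.28). HSD17B12, the ketoacyl reductase, fell from 91.7 ± 4.66 to 70.6 ± 0.384 CPM (edgeR adjusted p = 2.26e-05). The dehydratases HACD2 and HACD3 rose 1.28-fold and 1.15-fold, from 220.8 ± 10.7 to 281.7 ± 3.95 CPM and from 225.1 ± 2.68 to 259 ± 2.09 CPM (SD, n = 2). TECR, the enoyl reductase that closes the cycle, rose from 44.4 ± 2.47 to 65 ± 1.4 CPM; its log2 difference was 0.55, or 0.23 with length and GC offsets. HACD1 rose on few reads, with 1 and 4 counts in control and 23 and 20 counts in resistant libraries. HACD4, at 3.40 and 2.56 CPM, was called lower (edgeR adjusted p = 0.0236), but not with total count scaling or DESeq2 (edgeR adjusted p = 0.189, DESeq2 adjusted p = 0.344, or 0.187 on the genes of the edgeR fit) and not without 3 of the 4 libraries. Those were control replicate 2, resistant replicate 1 and resistant replicate 2 (edgeR adjusted p = 0.0963, 0.0592 and 0.099). TECRL had 0 counts in every library.

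Of the 6 electron donors of desaturases, 4 were called lower and 2 higher (median -0.41). CYB5A, the microsomal cytochrome b5, fell from 260.4 ± 7.25 to 136.8 ± 2.08 CPM, with a log2 difference of -0.93 (SE 0.0398, edgeR adjusted p = 2.18e-09). CYB5B, its outer mitochondrial relative, fell 1.37-fold and the reductase CYB5R4 fell 2.39-fold. CYB5R3, the main cytochrome b5 reductase, went the other way, from 23.1 ± 0.64 to 49.7 ± 0.456 CPM (log2 difference 1.11, SE 0.0536, edgeR adjusted p = 6.1e-09). CYB5R1 had a log2 difference of 0.19 (edgeR adjusted p = 0.00597), which was not called with length and GC offsets (edgeR adjusted p = 0.132) or without resistant replicate 1 (edgeR adjusted p = 0.112). CYB5R2 was low, at 5.68 and 4.45 CPM, and its call as lower (edgeR adjusted p = 0.0172) ended with total count scaling (edgeR adjusted p = 0.217) and DESeq2 (DESeq2 adjusted p = 0.292, or 0.135 on the genes of the edgeR fit). It also ended without control replicate 2 (edgeR adjusted p = 0.0983) and without resistant replicate 1 (edgeR adjusted p = 0.0946).

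Desaturases outside the 10 listed genes were higher where called. Of 5 listed, 4 were tested, and 3 were called higher and 0 lower (median 1.39). SCD5, the second human stearoyl-CoA desaturase, had 3.23 and 3.6 CPM in control and 18.1 and 18.7 CPM in resistant libraries. It rose 5.36-fold (log2 difference 2.42, SE 0.0875, edgeR adjusted p = 5.66e-10) while SCD fell, but its CPM stayed far below that of SCD. DEGS1, which puts the double bond into ceramide, rose from 369.5 ± 0.612 to 567.8 ± 5.15 CPM. DEGS2, which makes phytoceramide, rose from 11.2 ± 1.19 to 50.6 ± 4.77 CPM (log2 difference 2.17, SE 0.0865, edgeR adjusted p = 1.23e-09). FADS3, beside FADS2 on chromosome 11, had 18.4 and 22.6 CPM in control and 22.3 and 18.8 CPM in resistant libraries. The groups overlapped (log2 difference 0.003, edgeR adjusted p = 0.982), although with length and GC offsets FADS3 was called lower, at -0.33 (edgeR adjusted p = 0.00224). Without control replicate 2 it was called higher, at 0.17 (edgeR adjusted p = 0.0422). FADS6 had at most 9 counts in a library and was not tested.

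**Figure D4:**
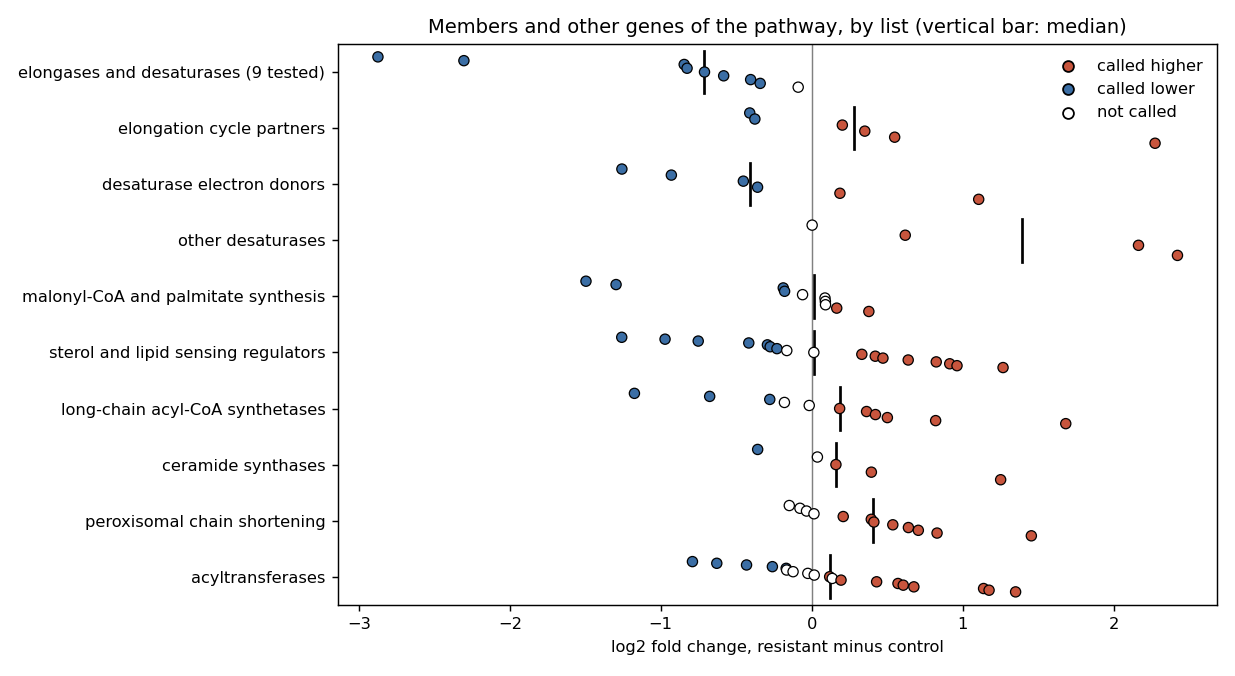
Log2 fold change, resistant minus control, of tested genes in the family and in 9 lists of the pathway. Each point is a gene, filled red where called higher, blue where called lower and white where not called, and vertical bars are list medians. The tested members lie left of 0, with their median at -0.71, while the medians of peroxisomal chain shortening and other desaturases are 0.40 and 1.39.

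Genes that supply the chains went both ways. Of 11 genes of malonyl-CoA and palmitate synthesis, 10 were tested, and 2 were higher and 4 lower (median 0.014). ME1, the malic enzyme that makes NADPH, fell 2.82-fold and OXSM, of mitochondrial fatty acid synthesis, fell 2.46-fold. ACACA, the acetyl-CoA carboxylase that makes malonyl-CoA, rose from 373.9 ± 0.893 to 486.1 ± 5.88 CPM, but was not called with length and GC offsets (log2 difference 0.041, edgeR adjusted p = 0.182). FASN, the fatty acid synthase, had 373 and 410 CPM in control and 347 and 345 CPM in resistant libraries. It was called lower (log2 difference -0.18, edgeR adjusted p = 0.00397), but at 0.0087 with total count scaling it was not (edgeR adjusted p = 0.88), nor without resistant replicate 2 (edgeR adjusted p = 0.061). With length and GC offsets FASN was called lower, at -0.77 (edgeR adjusted p = 1.34e-12), so its size depended strongly on the processing. In this list 5 were higher and 2 lower with total count scaling, and 0 higher and 8 lower with length and GC offsets. Leaving out a library also moved the list: 4 were higher without control replicate 2, and 1 without each of the other 3.

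Of 17 sterol and lipid sensing regulators, 8 were higher and 7 lower (median 0.014), or 9 and 3 with total count scaling. INSIG1, which retains SREBP precursors at the endoplasmic reticulum and is itself an SREBP target, fell 1.96-fold, from 407.4 ± 4.53 to 207.8 ± 1.4 CPM. MLX, the partner of the glucose sensor ChREBP, fell 2.39-fold, and LPIN1, a phosphatidate phosphatase, fell 1.68-fold. RXRA, the partner of LXR and PPAR receptors, rose 2.41-fold. With length and GC offsets the log2 difference of RXRA went from 1.27 to 0.74 and that of LPIN1 from -0.75 to -1.065, both still called. SREBF1, the gene of SREBP-1, was chosen after its values were seen. It had 216 and 236 CPM in control and 189 and 180 CPM in resistant libraries. Its log2 difference was -0.29 (SE 0.0476, edgeR adjusted p = 0.000193), but -0.11 and not called with total count scaling (edgeR adjusted p = 0.0859), and -0.79 with length and GC offsets.

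Genes that use or shorten the chains were called in both directions, except in the peroxisomal list. Of 13 genes of peroxisomal chain shortening, which trims very long chains and completes docosahexaenoate synthesis, 12 were tested, 8 were called higher and 0 lower (median 0.40). HSD17B4, the bifunctional enzyme, rose 2.74-fold and ACAA1, the thiolase, rose 1.56-fold. With length and GC offsets 3 members of this list were called lower. Of 11 long-chain acyl-CoA synthetases and transporters, 6 were higher and 3 lower (median 0.19), with ACSL5 up 3.21-fold and SLC27A3 down 2.26-fold. Of 6 ceramide synthases, which join fatty acyl chains to sphingoid bases, 5 were tested, and 3 were higher and 1 lower (median 0.16), or 2 and 2 with length and GC offsets. CERS2, which uses very long chains, rose from 107.5 ± 0.143 to 141.3 ± 0.12 CPM, and CERS6, which uses palmitate, fell from 98.6 ± 2.17 to 76.9 ± 1.2 CPM. Of 20 acyltransferases, 19 were tested, and 9 were higher and 5 lower (median 0.12), or 6 and 7 with length and GC offsets and 12 and 3 with total count scaling. GPAT4 and MBOAT1 rose 1.60-fold and 2.55-fold, and AGPAT5 fell 1.55-fold. Over all 9 lists, 45 of 90 tested genes were called higher and 26 lower, where 33% and 31.7% of all genes tested were. This balance depended on the processing: 37 were higher and 38 lower with length and GC offsets, and 56 and 15 with total count scaling.

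Of the 19 nearest tested coding genes on either side of the members, 12 were called lower and 5 higher, where 31.7% and 33% of all genes tested were. Across alternatives 10 to 13 were lower and 4 to 6 higher. Distances of these neighbours ran from 0.178 kb, for TMEM258 and FADS2, to 1946 kb, for FAM241A and ELOVL6, so not all were close. On chromosome 5, the nearest tested coding genes were DEPDC1B, 51.6 kb from ELOVL7, and ERCC8, 29.4 kb from it. DEPDC1B fell 3.62-fold and ERCC8, a repair gene, fell 1.38-fold, against 7.33-fold for ELOVL7. CDC20, a mitotic gene 0.194 kb from ELOVL1, fell 1.85-fold while ELOVL1 was not called. TMEM258, 0.178 kb from the annotated span of FADS2, fell from 122.4 ± 6.11 to 68.7 ± 0.614 CPM. That span begins at 61792980, while the RefSeq starts of FADS2 lie further inside it, at 61816203 and 61816404. FEN1, a flap endonuclease 2.38 kb from FADS1, had a log2 difference of -0.12 (edgeR adjusted p = 0.0376), which turned to 0.064 (edgeR adjusted p = 0.276) with total count scaling. Its call also ended without control replicate 2, resistant replicate 1 or resistant replicate 2 (edgeR adjusted p = 0.355, 0.212 and 0.261). GCLC, 148 kb from ELOVL5, rose 2.08-fold while ELOVL5 fell. Both neighbours of SCD fell, BLOC1S2 by 1.53-fold at 60.4 kb and WNT8B, a low gene at 1.81 and 0.732 CPM, by 2.45-fold at 98.2 kb.

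With total count scaling in place of TMM, log2 differences of all genes shifted by a median of 0.188, and values are relative to the TMM scale. Under it the called genes were 64.4% higher in place of 51% with TMM, and 8 members were still called lower.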

How the data were processed

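RNA of 2 control and 2 enzalutamide-resistant C4-2 libraries was measured. The authors deposited raw read counts per Ensembl gene, 1 table per library and not normalized. The submitters' processing notes name STAR 2.5.2b, HTSeq and the build GRCh38 (hg38). The HTSeq mode, its version, its strand setting and its annotation release were not given in the sources used here. Left out were 5 closing rows that name no gene, 55.4% to 74.4% of records. Identifiers were matched without version to GENCODE 29, with a value for 56753 of 60483, and newer symbols came from a symbol table.

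Resistant was compared with control over all 4 libraries, in a model with group alone. Low counts were removed by filterByExpr (minimum count 10), and the rest were scaled with TMM and passed to edgeR 4.0.16 (R 4.3.3, quasi-likelihood F test). Genes with a Benjamini-Hochberg adjusted p below 0.05, over 20325 genes, were called, with 2 residual degrees of freedom in the fit. The quasi-likelihood test also draws on the spread of other genes, so its p-values do not rest on those 2 degrees of freedom alone. The SE, an approximation, is the size of the log2 fold change divided by the square root of F. CPM use TMM-scaled library sizes and RPKM the merged exons of GENCODE basic coding transcripts. Counts within a pair differed by more than sampling noise (chi-square per degree of freedom 5.67 in control and 2.38 in resistant libraries), so no library was treated as a copy of another. The fit was tested on simulated data with few changed genes and a common dispersion. That setting differs from these data, where 64.7% of genes tested were called, so it cannot speak for the scaling or the calls here.

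Alternatives were DESeq2 1.42.0, total count scaling, RLE factors, no count filter, a filter of 1 CPM in 2 libraries, DESeq2 on the genes of the edgeR fit (chosen after seeing the data), the replicate number as a block, length and GC offsets (smooth fits with mgcv, alone and with the block) and each library left out. Members and gene lists were chosen with earlier results of these data known. All members, all elongation cycle partners, electron donors and other desaturases, the neighbours, and up to 4 called genes of smallest adjusted p from each other list could be named, apart from some whose values are not reported here. Lists are described by counts and medians, with no set test.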

Additional observations from a re-analysis of the deposited data

How the results depend on the processing

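The count of members called lower stayed between 7 and 8, and that of members called higher at 0, under every alternative run. No member that was called changed sign. Of the comparisons of a tested member's fold change with an alternative, 110 kept their side of the threshold, 4 lost a call (all ELOVL4) and 2 gained one (both ELOVL1). With the filter of 1 CPM, ELOVL2 was not tested and ELOVL1 was among the 8 called. ELOVL1, which was not called, changed sign with total count scaling (0.099) and without a count filter (0.0062). Over all genes, those called lower went from 6443 to 4101 with DESeq2 and its own filter, which gave an adjusted p to 21918 genes. In an alternative chosen after seeing the data, DESeq2 on the 20325 genes of the edgeR fit called 4836 lower and 5568 higher, with 7 members lower. Genes of the 9 lists went from 45 higher and 26 lower to 56 and 15 with total count scaling, and to 37 and 38 with length and GC offsets. Under these offsets 8 list genes turned from a positive to a negative value and were called lower, 3 of them in the malonyl-CoA list. Signs turned for FASN (0.0087) and the neighbouring genes NOLC1 (0.072) and FEN1 (0.064) with total count scaling. They turned for FADS3 (-0.33) and CERS5 (-0.044) with length and GC offsets, and for the same genes (-0.33 and -0.045) with those offsets and the replicate block. Apart from the offsets' own terms and the smaller set that a filter leaves, the cause was not tested.

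The replicate numbers in the labels are not shown to pair the libraries: the differences between replicates 1 and 2 correlated across genes at -0.0228 between the groups. With the replicate number as a block, 6647 genes were called higher and 6444 lower, with 8 members lower, 43 list genes higher and 26 lower. With the block and the offsets, 7 members were called lower. Without each library in turn, 5980 to 6724 genes were called higher and 5460 to 6250 lower, and 8 members lower each time. Depth limited ELOVL2, ELOVL3 and ELOVL4, which had at most 44 counts in a library.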

Other observations

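Pseudogene copies of SCD and FADS2 had few or no reads. The processed pseudogene SCDP1 had 3 counts in each control library and 3 and 0 in resistant replicates 1 and 2, against 17596 or more for SCD. The unprocessed pseudogene FADS2B had 0 counts in every library. Records without a unique alignment, which were counted for no gene, made up 28.3% and 26.7% of all in control and 22.7% and 24% in resistant libraries. Counts of a gene and its copy thus cover uniquely placed reads alone, and the part of the other records in these values was not tested. ELOVL2-AS1, antisense to ELOVL2, had 11 and 17 counts in control and 20 and 19 in resistant libraries, or 0.461 and 0.606 CPM against 0.415 and 0.458 CPM, where ELOVL2 was 4.94-fold lower. It shares 0 exonic bases with ELOVL2. FEN1 shares 49 exonic bases with FADS2, 0.444% of its annotated exons. Records that HTSeq called ambiguous came to 11.6% and 12.7% of the gene counts in control and 8.77% and 8.75% in resistant libraries, and their part in the values of FADS1 and FADS2 was not tested.

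The ratio of SCD to ELOVL6 per kilobase was 30.6 and 30.5 in control and 24.79 and 24.76 in resistant libraries. That of ELOVL5 to ELOVL2 was 383.2 and 424.5 in control and 1389 and 1309 in resistant libraries, on at most 28 counts of ELOVL2.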
